A study of Saccharomyces cerevisiae with 12 samples.

Results

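Messages of 10 budding yeast genes were followed across RNA immunoprecipitations and a heat shift: the G1 cyclin genes CLN1, CLN2 and CLN3, the B-type cyclin genes CLB1 to CLB6, and SIC1, the gene of an inhibitor of the cyclin-dependent kinase. They were chosen by locus tag from the 7126 counted features, all 10 were found, and all 10 were among the 5245 features with enough counts to be tested. The libraries held RNA recovered after UV cross-linking with Mex67, the receptor that carries mature messages through the nuclear pore, or with Npl3, a nuclear protein that binds messages before export. A control strain without a tag was taken through the same procedure and gives the background. The Mex67 strain is HKY1266, the Npl3 strain is HKY157, and the control is labelled HKY36/HKY381, with no key to its single libraries. Both c-myc antibody beads and GFP-Trap beads appear in the protocol with no key to the samples, so strain, beads and bound protein cannot be told apart between the groups. All cells grew at 25 °C in YPD medium to log phase, and each culture was then divided and kept for 30 min at 42 °C or at 25 °C. This gave 6 groups of 2 libraries: Mex67 IP at 42 °C and 25 °C, Npl3 IP at 42 °C and 25 °C, and no tag at 42 °C and 25 °C. The labels' growth protocol names no step that would arrest or synchronise the cells. Neither the tags nor the promoters of the tagged proteins are given in the sources used here, and no library of total RNA without immunoprecipitation was analysed.

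Cyclins are the short-lived subunits that switch on the kinase Cdc28 and steer it through the cell cycle. Cln3 starts the programme in G1 by relieving the repressor Whi5, after which the transcription factors SBF and MBF switch on CLN1, CLN2, CLB5 and CLB6. Cln1 and Cln2 drive budding and mark Sic1 for destruction, Clb5 and Clb6 start DNA replication, Clb3 and Clb4 help to build the spindle, and Clb1 and Clb2 drive mitosis. SIC1 is made at the end of mitosis under Swi5, and its product holds the Clb kinases in check until the next S phase. Heat shock is known to delay budding yeast in G1 for a while, with less CLN1 and CLN2 message.

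The genes lie on 6 chromosomes of build R64, and no other gene of the reference annotation overlaps any of them. CLB5 (YPR120C) lies on chromosome XVI from 773875 to 775182, 746 bp from CLB2 (YPR119W, 771653 to 773128). CLB6 (YGR109C) lies on chromosome VII from 705359 to 706501, 307 bp from CLB1 (YGR108W, 703636 to 705051). Each of these neighbouring pairs joins an S-phase and a mitotic cyclin gene on opposite strands. SIC1 (YLR079W, chromosome XII, 286820 to 287674) is the shortest of the 10 at 855 bp. CLN2 (YPL256C) lies on chromosome XVI from 64977 to 66614, CLN1 (YMR199W) on chromosome XIII from 662644 to 664284, and CLN3 (YAL040C) on chromosome I from 65778 to 67520. CLB3 (YDL155W) lies on chromosome IV from 176773 to 178056, and CLB4 (YLR210W) on chromosome XII from 562008 to 563390.

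Depth limits all that follows. The libraries held 87741 to 1140349 counts, and the 10 messages together took 37 to 918 of them, or 0.0393% to 0.103% of a library. The smallest library, heated no-tag replicate 1, gave 16.7 CPM for a single count, CPM being counts relative to the TMM-scaled library size. Its HSP104 message, of the heat-induced disaggregase, was at 1154 CPM, within the 1003 to 2412 CPM of the 6 libraries at 25 °C, while the other 5 heated libraries had 2500 to 3871 CPM. Its HSP26 message, of a small heat shock protein, was at 301 CPM, against 56.8 CPM in its own unheated culture. The other 5 heated libraries had 3553 to 10331 CPM of HSP26, and the 6 libraries at 25 °C had 56.8 to 634.5 CPM. Whether this library was heated as its label says is in doubt, and every no-tag value at 42 °C rests in part on it. The replicates also differed in a-cell genes: BAR1, a protease gene of a cells, was at 0 to 4.97 CPM in replicate 1 of the 6 groups and at 71.2 to 187 CPM in replicate 2. Of 6 a-cell genes examined, STE2, STE6 and BAR1 separated the replicates without overlap. At 25 °C no-tag replicate 2 had 172 CPM of STE2 and 335 CPM of STE3, an alpha-cell gene. Npl3 replicate 1 at 25 °C had 0 and 2.78 CPM of them. LEU2, a strain marker, was at 1378 and 11.9 CPM in no-tag replicates 1 and 2 at 25 °C. It was at 1080 and 2.34 CPM with Mex67 at 25 °C, and at 15.3 and 31.2 CPM with Npl3. URA3, another strain marker, was at 1055 and 1186 CPM with Npl3 at 25 °C. At 25 °C it was at 46.5 and 4.69 CPM with Mex67 and at 334 and 20.8 CPM without a tag. SAG1, an alpha-cell gene, was at 15.3 and 60 CPM with Npl3 at 25 °C, against 783 and 1124 CPM without a tag. With Mex67 at 25 °C SAG1 was at 1396 and 110 CPM. The groups thus differed in such genes, as the replicates did. Whether the replicates share a strain was not tested. A block for replicate number was an alternative, and the part of these differences in the values below was not tested further.

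Per kilobase, SIC1 was the most abundant of the 10 messages in each of the 6 groups. Its level per length averaged 218 ± 91 CPM per kb (SD, n = 2 here and below) with Mex67 at 42 °C and 113 ± 36.3 with Mex67 at 25 °C. It averaged 260.2 ± 96 and 195 ± 11.7 CPM per kb with Npl3 at 42 °C and 25 °C, and 95.4 ± 24.3 and 90.4 ± 10.1 CPM per kb without a tag. CLN3 or CLN2 followed in 5 groups, and CLB5 came second with Npl3 at 42 °C at 69.3 ± 28.1 CPM per kb. In that group CLN3 (59.6 ± 0.76 CPM per kb) lay within the spread of CLB5, so the order of these neighbours is not resolved. Without a tag at 42 °C CLN3 (73.4 ± 18.3 CPM per kb) lay within the spread of SIC1, so their order there is not resolved either. CLB6 was last in 4 groups, at 0.35 ± 0.49 CPM per kb with Mex67 at 42 °C, where it had a single count over both libraries. In CPM, without division by length, CLN3 had a higher mean than SIC1 with Mex67 (213 against 187 at 42 °C, 153.5 against 96.9 at 25 °C). The same held without a tag (128 against 81.6 at 42 °C, 87.4 against 77.3 at 25 °C).

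**Figure D1:**
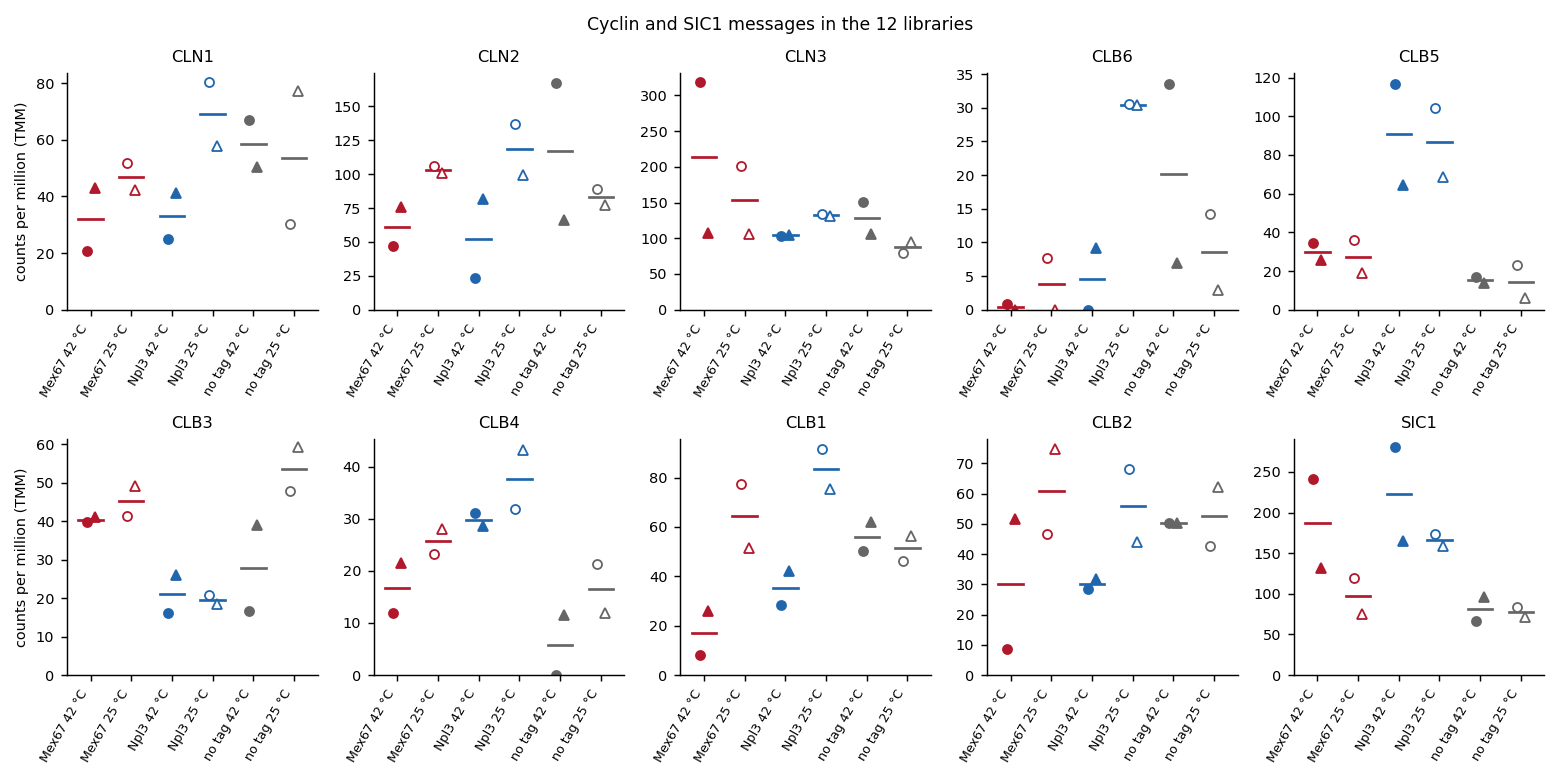
Normalised counts in CPM (linear axis, each panel with its own scale) of the 10 messages in the 12 libraries, filled at 42 °C and open at 25 °C, circles for replicate 1, triangles for replicate 2 and lines for group means. CLB5 stands at 64.6 to 117 CPM in the 4 Npl3 libraries and at 5.93 to 36.2 CPM in the other 8.

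The first question was how the immunoprecipitations differed from the no-tag control. CLB5, the main S-phase cyclin message, was higher with Npl3 than without a tag at both temperatures. CLB5 had 117 and 64.6 CPM in the Npl3 libraries at 42 °C (94 and 77 counts), against 16.7 and 13.8 CPM in the heated no-tag libraries (1 and 6 counts). At 25 °C it had 104 and 68.9 CPM with Npl3 (75 and 86 counts), against 23.1 and 5.93 CPM without a tag (13 and 2 counts). Every Npl3 library lay above every no-tag library at either temperature. CLB5 rose by 2.64 ± 0.67 (log2 ± SE; 6.25-fold) with Npl3 at 42 °C (adjusted p = 0.0351) and by 2.43 ± 0.55 (5.38-fold) at 25 °C (adjusted p = 0.043; edgeR quasi-likelihood test, Benjamini-Hochberg over 5245 features). It was the 1 of the 10 messages that passed in each of these comparisons, in which 7.45% of all features passed at 42 °C (6.52% higher) and 2.40% at 25 °C (2.27% higher). DESeq2 called the same gene (adjusted p = 0.0186 at 42 °C and 0.0117 at 25 °C) and no other of the 9 and 8 members to which it gave an adjusted p, with 12.7% and 7.03% of all such features called. At an unadjusted p under 0.05 it was joined by CLB4 and SIC1 at 42 °C and by CLB3, CLB4 and SIC1 at 25 °C, where 28.1% and 20.6% of all features had such a p. The libraries at 42 °C and 25 °C came from the same cultures and are not independent repeats.

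These calls are close to the threshold and rest on few background counts. Without no-tag replicate 1 at 25 °C the estimate at 25 °C was 3.81 (log2; edgeR adjusted p = 0.137), and the call at 25 °C also ended without the other no-tag library, either Npl3 library at 25 °C or either heated no-tag library. The call at 42 °C ended without heated no-tag replicate 1 (2.61, adjusted p = 0.117), without heated no-tag replicate 2 (2.25, adjusted p = 0.356) and without Npl3 replicate 1 at 42 °C (2.17, adjusted p = 0.200). With gene length corrected in each library CLB5 had a log2 difference of 2.66 at 42 °C (adjusted p = 0.0678) and 2.46 at 25 °C (adjusted p = 0.117), with 0 of all features called at either temperature.

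With Mex67, CLB5 had 34.3 and 25.9 CPM at 42 °C, against 16.7 and 13.8 CPM without a tag at 42 °C. It had 36.2 and 18.7 CPM with Mex67 at 25 °C, against 23.1 and 5.93 CPM without a tag. The groups did not overlap at 42 °C and overlapped at 25 °C, and neither difference passed (1.10 ± 0.71 and 0.78 ± 0.62 on the log2 scale, adjusted p = 0.548 and 0.999, edgeR). Npl3 and Mex67 were then compared directly, a comparison added after the data were seen. CLB5 was higher in both Npl3 libraries than in both Mex67 libraries at each temperature, by 1.55 ± 0.49 (log2) at 42 °C (edgeR adjusted p = 0.0849) and 1.65 ± 0.52 at 25 °C (adjusted p = 0.0882). At this threshold 3.93% of all features passed at 42 °C and 2.80% at 25 °C, and 0 of the 10 messages did. An unadjusted p under 0.05 was seen for 4 of them at 42 °C (23.2% of all features) and 3 at 25 °C (23.5%). DESeq2 called none of the 9 and 8 members with an adjusted p (6.33% and 6.82% of all features), and the groups were apart for 5 and 6 of the 10 messages (53.5% and 56.8%). With replicate number as a block CLB5 passed at both temperatures (adjusted p = 0.0231 at 42 °C and 0.0261 at 25 °C).

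Heat left the CLB5 values close together within each strain, with log2 changes of 0.17 ± 0.55 (Mex67), 0.07 ± 0.45 (Npl3) and −0.15 ± 0.78 (no tag). The 95% interval for Npl3 ran from −0.91 to 1.05, so the data leave room for changes within it. Larger heat changes of other messages, such as −2.10 for CLB1 with Mex67 (edgeR adjusted p = 0.393), did not pass either. The difference between the heat changes with Npl3 and without a tag was 0.22 ± 0.90 (edgeR adjusted p = 1).

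CLB6, the message of the other S-phase cyclin, had most of its counts in the unheated Npl3 libraries. It had 0 and 9.23 CPM with Npl3 at 42 °C (0 and 11 counts), against 30.5 and 30.4 CPM with Npl3 at 25 °C (22 and 38 counts). The heated libraries lay below the unheated ones by a log2 change of −2.52 ± 0.93 (unadjusted p = 0.0179, edgeR adjusted p = 0.416), a value resting on the 11 counts of heated replicate 2, since heated replicate 1 had no count. With Mex67 it had 1 and 0 counts in the heated libraries and 3 and 0 in the unheated ones. Without a tag the heated libraries had 2 and 3 counts and the unheated ones 8 and 1. These counts are too low to rank the other groups. Within a library the ratio of CLB5 to CLB6 counts does not depend on scaling. It was 7 (95% exact interval 3.7 to 14.6) in heated Npl3 replicate 2. In heated Npl3 replicate 1, where CLB6 had no count, the interval started at 25 and had no upper end. In the unheated Npl3 libraries it was 3.41 (2.10 to 5.76) and 2.26 (1.53 to 3.41). These intervals cover counting error only, since reads without molecular identifiers are not independent molecules.

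**Figure D2:**
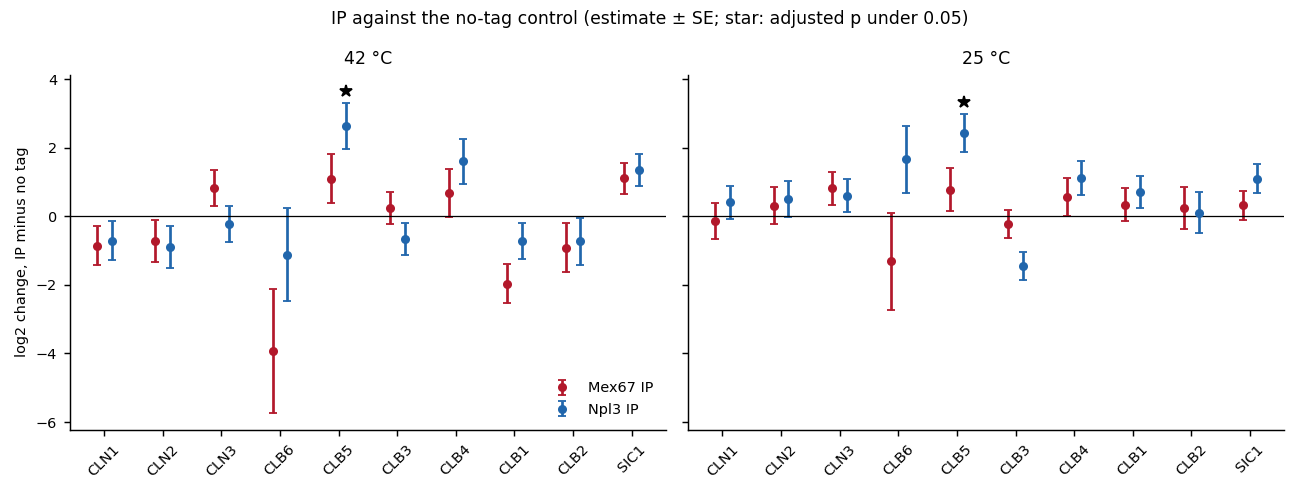
Log2 change of each message, IP minus no tag, at 42 °C (left) and 25 °C (right), with points for the estimates of the fit over all 12 libraries and bars for ± 1 SE. Stars mark an adjusted p under 0.05 (edgeR), which CLB5 with Npl3 alone reached, at 2.64 and 2.43.

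The other messages did not pass against the no-tag control. SIC1 had the lowest adjusted p among them with Npl3 at 42 °C. It had 281 and 165 CPM there, against 66.9 and 96.3 CPM without a tag at 42 °C. At 25 °C it had 174 and 159 CPM with Npl3, against 83.5 and 71.2 CPM without a tag. The groups did not overlap at either temperature. Of the 10 messages 3 lay wholly above and 4 wholly below the no-tag libraries at 42 °C (59.4% of all features were without overlap), and 7 above and 1 below at 25 °C (55.2%). The SIC1 log2 difference was 1.35 ± 0.46 at 42 °C (edgeR adjusted p = 0.0824) and 1.10 ± 0.42 at 25 °C (adjusted p = 0.165). With gene length corrected in each library it was 0.96 at 42 °C (edgeR adjusted p = 0.178) and 0.79 at 25 °C (adjusted p = 0.34). With Mex67 the SIC1 difference was 1.11 ± 0.46 at 42 °C (adjusted p = 0.421) and 0.32 ± 0.43 at 25 °C (adjusted p = 0.999).

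CLB3 stood on the other side of the background with Npl3. It had 16.1 and 26 CPM with Npl3 at 42 °C, against 16.7 and 39 CPM without a tag at 42 °C (1 and 17 counts). At 25 °C it had 20.8 and 18.4 CPM with Npl3, against 47.9 and 59.3 CPM without a tag. The groups overlapped at 42 °C and were apart at 25 °C, with log2 differences of −0.67 ± 0.47 (edgeR adjusted p = 0.374) and −1.44 ± 0.41 (adjusted p = 0.0767). CLB4, which is grouped with CLB3 in spindle assembly, lay the other way. It had 31 and 28.5 CPM with Npl3 at 42 °C, against 0 and 11.5 CPM without a tag (0 and 5 counts). In the first of these no-tag libraries 3 counts would be 50.2 CPM, so its 0 does not exclude the Npl3 level. At 25 °C CLB4 had 31.9 and 43.2 CPM with Npl3, against 21.3 and 11.9 CPM without a tag. Its differences of 1.60 ± 0.66 and 1.13 ± 0.50 (log2) did not pass (edgeR adjusted p = 0.136 and 0.221).

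Of the 10 messages, 3 lay above 0 with Npl3 against no tag at 42 °C and 9 at 25 °C, with medians of −0.69 and 0.66 (log2), while the median of all features was 0.10 at 42 °C and close to 0 at 25 °C. With Mex67, 5 lay above 0 at 42 °C and 7 at 25 °C, with medians of −0.24 and 0.31 against 0.12 and close to 0 for all features. Of all features 54% at 42 °C and 50% at 25 °C lay above 0 with Npl3, and 56.5% and 49.8% with Mex67. With total counts as the only scaling the Mex67 median at 42 °C turned to 0.33, when that of all features was 0.70, and the Npl3 median at 42 °C was −0.27, when that of all features was 0.52. Without heated no-tag replicate 1 the medians at 42 °C were −0.40 with Npl3 and close to 0 with Mex67. The Npl3 median at 42 °C was −0.28 without heated Npl3 replicate 1. The Mex67 median was −0.07 at 42 °C without heated Mex67 replicate 1, −0.38 there without heated Mex67 replicate 2, and 0.13 at 25 °C without unheated Mex67 replicate 1. In the Mex67 comparisons 0 members and 0% of all features passed with edgeR. Those with an unadjusted p under 0.05 numbered 2 of 10 (CLB1 and SIC1) at 42 °C, where 11.5% of all features did so, and 0 at 25 °C (3.87%). DESeq2 gave no member an adjusted p at 42 °C (14.4% of the features with one were called) and called 0 at 25 °C (0.0191%). The groups were apart for 7 of 10 members at 42 °C and 3 at 25 °C, against 45.9% and 32.6% of all features.

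The second question was how the messages differed between 42 °C and 25 °C in each strain. The mitotic cyclin CLB1 had the lowest unadjusted p of the 10 with Mex67 and with Npl3. Its values were lower at 42 °C in all 4 immunoprecipitated cultures, as were those of CLN2, CLB2 and CLB4. The share of all features with the same sign in every culture was not computed, here or for the counts of cultures below. CLB1 had 7.97 and 25.9 CPM in the Mex67 libraries at 42 °C (10 and 12 counts), against 77.5 and 51.5 CPM at 25 °C (30 and 22 counts). With Npl3 it had 28.5 and 42 CPM at 42 °C (23 and 50 counts), against 91.6 and 75.3 CPM at 25 °C (66 and 94 counts). Without a tag it had 50.2 and 61.9 CPM at 42 °C (3 and 27 counts), against 46.2 and 56.4 CPM at 25 °C (26 and 19 counts). All 4 heated immunoprecipitated libraries thus lay below all 4 unheated ones, and the no-tag groups overlapped. The same held for CLN2, making 2 of the 10 messages, against 4.37% of all features.

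The CLB1 log2 change was −2.10 ± 0.52 with Mex67 (unadjusted p = 0.00141), −1.22 ± 0.44 with Npl3 (unadjusted p = 0.0161) and 0.21 ± 0.53 without a tag. The Mex67 value was −1.28 without heated Mex67 replicate 1. None passed over all features (edgeR adjusted p = 0.393, 0.416 and 1), and 0% of all features passed in any of these 3 comparisons. Averaged over the 3 strains the change was −1.04 ± 0.29 (adjusted p = 0.189), in a comparison where 0 of 10 members and 0.0381% of all features passed. CLB1 was the 1 member with an unadjusted p under 0.05 there (15.5% of all features), and DESeq2 gave no member an adjusted p (9.67% of the features with one were called). The count of passing features was 149 with the culture, which pairs each heated library with its unheated one, as a block, and CLB1 then had an adjusted p of 0.0699. Without Mex67 replicate 2 at 42 °C the averaged change passed (−1.33, adjusted p = 0.0303). Because heated no-tag replicate 1 had HSP26 and HSP104 levels within the unheated range, the mean of Mex67 and Npl3 alone was added after the data were seen. This mean also leaves out no-tag culture 2, whose heated library had 3553 CPM of HSP26. The CLB1 change in that culture was 0.13 (log2; 27 against 19 counts). In the mean of Mex67 and Npl3 CLB1 differed by −1.66 ± 0.34 (95% interval −2.40 to −0.92), which did not pass without pairing (adjusted p = 0.0816) and passed with the culture as a block (−1.69, adjusted p = 0.018). In that comparison 0 of 10 members and 0.305% of all features passed without pairing. With the culture as a block 1 of 10 members and 469 of all 5245 features passed, which are similar shares. Without pairing 5 members had an unadjusted p under 0.05 (21.9% of all features), namely CLN1, CLN2, CLB1, CLB2 and SIC1, and DESeq2 called 0 of the 3 with an adjusted p (11.1%). The adjusted p of CLB1 ranged from 0.0133 to 0.397 over 20 alternatives, the highest without Mex67 replicate 1 at 42 °C, and it passed in 5 of them.

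The heat change of CLB1 with Mex67 differed from that without a tag by −2.31 ± 0.74 (unadjusted p = 0.00815), and that with Npl3 by −1.43 ± 0.69 (unadjusted p = 0.058). Over all features neither difference passed (edgeR adjusted p = 0.996 and 1), and 0% of all features did, with edgeR or DESeq2. An unadjusted p under 0.05 was seen for 1 of 10 members (3.55% of all features) in the Mex67 difference and for 0 in the Npl3 difference (2.92%) and between Mex67 and Npl3 (1.26%). A heat change of CLB1 particular to bound RNA was thus not shown. In bulk cultures a smaller share of cells in mitosis and less CLB1 message per cell cannot be told apart, and neither can be told apart from less binding.

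CLB2, the other mitotic cyclin, lay on the same side with smaller differences, none of which passed. It had 8.77 and 51.8 CPM with Mex67 at 42 °C, against 46.5 and 75 CPM at 25 °C. With Npl3 it had 28.5 and 31.9 CPM at 42 °C, against 68 and 44 CPM at 25 °C. Without a tag it had 50.2 and 50.4 CPM at 42 °C, against 42.6 and 62.3 CPM at 25 °C. Only the Npl3 groups were free of overlap, and the log2 changes were −1.19 ± 0.64 (Mex67), −0.87 ± 0.58 (Npl3) and −0.04 ± 0.70 (no tag), with edgeR adjusted p values of 0.524, 0.567 and 1. The Mex67 value rests on replicate 1, in which the log2 change within the culture was −2.07, against −0.51 in replicate 2.

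**Figure D3:**
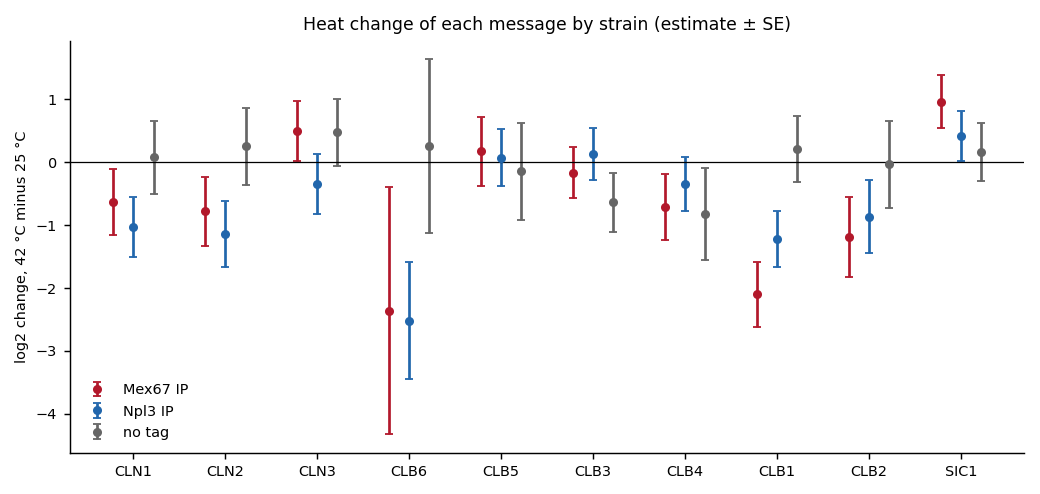
Log2 change between 42 °C and 25 °C of each message in the Mex67 IP, Npl3 IP and no-tag strains, with bars of ± 1 SE from the fit over all 12 libraries. CLB1 lies at −2.10 and −1.22 in the immunoprecipitations and at 0.21 without a tag, and no change passed an adjusted p of 0.05.

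The late G1 cyclins had lower heated values with Npl3. CLN2 had 23.6 and 81.4 CPM with Npl3 at 42 °C, against 137 and 99.3 CPM at 25 °C. With Mex67 it had 47 and 75.5 CPM at 42 °C, against 106 and 100.7 CPM at 25 °C. Without a tag it had 167 and 66.5 CPM at 42 °C, against 88.8 and 77.1 CPM at 25 °C. Both immunoprecipitations were without overlap, and CLN2 was lower at 42 °C in 4 of 4 of their cultures. The log2 changes were −1.14 ± 0.52 (Npl3, unadjusted p = 0.0482), −0.78 ± 0.54 (Mex67) and 0.25 ± 0.61 (no tag), with edgeR adjusted p values of 0.452, 0.602 and 1. The Npl3 value was −0.53 without heated Npl3 replicate 1 and −2.32 without heated Npl3 replicate 2.

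CLN1 had 24.8 and 41.1 CPM with Npl3 at 42 °C, against 80.5 and 57.7 CPM at 25 °C. With Mex67 it had 20.7 and 43.1 CPM at 42 °C, against 51.7 and 42.2 CPM at 25 °C. Without a tag it had 66.9 and 50.4 CPM at 42 °C, against 30.2 and 77.1 CPM at 25 °C. The Npl3 groups alone did not overlap, and the log2 change there was −1.04 ± 0.48 (unadjusted p = 0.0483, edgeR adjusted p = 0.452), against −0.63 ± 0.53 with Mex67 and 0.08 ± 0.58 without a tag.

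CLN3, the upstream G1 cyclin, also had lower heated values with Npl3, but not with Mex67. It had 319 and 108 CPM with Mex67 at 42 °C, against 202 and 105 CPM at 25 °C. With Npl3 it had 103 and 105 CPM at 42 °C, against 133 and 131 CPM at 25 °C. Without a tag it had 151 and 105 CPM at 42 °C, against 79.9 and 94.9 CPM at 25 °C. The heated Npl3 libraries lay below and the heated no-tag libraries above their unheated ones, with log2 changes of 0.49 ± 0.47 (Mex67), −0.35 ± 0.47 (Npl3) and 0.48 ± 0.53 (no tag), none of which passed (edgeR adjusted p = 0.716, 0.816 and 1). Heated Mex67 replicate 1 held 400 CLN3 counts, the highest count of any of the 10 messages in any library.

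SIC1 was higher at 42 °C in 4 of 4 immunoprecipitated cultures. It had 242 and 132 CPM with Mex67 at 42 °C, against 119 and 75 CPM at 25 °C. With Npl3 it had 281 and 165 CPM at 42 °C, against 174 and 159 CPM at 25 °C. Without a tag it had 66.9 and 96.3 CPM at 42 °C, against 83.5 and 71.2 CPM at 25 °C. The Mex67 groups did not overlap, the others did, and the changes within the 4 immunoprecipitated cultures ran between 0.04 and 1.00 (log2). The log2 change was 0.96 ± 0.42 with Mex67 (unadjusted p = 0.0398, edgeR adjusted p = 0.477), 0.42 ± 0.40 with Npl3 and 0.16 ± 0.47 without a tag. The Mex67 value was 0.47 without heated Mex67 replicate 1.

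Neither spindle cyclin passed in any strain. CLB3 had log2 changes of −0.17 ± 0.40 (Mex67), 0.13 ± 0.41 (Npl3) and −0.64 ± 0.47 (no tag). CLB4 was lower at 42 °C in 6 of 6 cultures, with changes of −0.71 ± 0.52, −0.35 ± 0.43 and −0.82 ± 0.73. The change was only −0.04 (log2) in Npl3 culture 1 and in no-tag culture 2. In no-tag culture 1 it was −3.00, where the heated library had no count and 3 counts would be 50.2 CPM. The edgeR adjusted p values of both genes lay between 0.63 and 1.

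Over the 10 messages, 3 lay above 0 with Mex67 and 3 with Npl3, with median heat changes of −0.67 and −0.61 (log2); 6 lay above 0 without a tag, with a median of 0.12. Of all features 52.7%, 56.6% and 43.5% lay above 0, and their medians were 0.05, 0.10 and −0.07. The Mex67 median of the members was −0.21 without heated Mex67 replicate 1, −1.05 without heated Mex67 replicate 2 and −0.39 without unheated Mex67 replicate 1. With edgeR 0 of 10 messages passed in each strain, while 2 (Mex67), 4 (Npl3) and 0 (no tag) had an unadjusted p under 0.05, against 10.1%, 11.0% and 2.12% of all features. DESeq2 called 0 of the 3, 10 and 10 members with an adjusted p, and 0.573%, 0.515% and 0% of all such features. Heated and unheated groups did not overlap for 5, 7 and 3 of the 10 messages, against 42.2%, 45.1% and 28.2% of all features.

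The opposite order of SIC1 and the mitotic cyclins can be read within a library, where scaling does not enter. A length trend that differs between libraries does enter, as SIC1 (855 bp) is shorter than CLB1 (1416 bp) and CLB2 (1476 bp). With gene length corrected, the heat change with Mex67 was 0.82 (log2) for SIC1 and −2.09 for CLB1. The ratio of SIC1 counts to the sum of CLB1 and CLB2 counts was computed, along with several other ratios, after the values were seen and is given as a description. It was 14.4 (95% exact interval 9.27 to 23.6) and 1.69 (1.10 to 2.63) with Mex67 at 42 °C, against 0.96 (0.63 to 1.47) and 0.59 (0.37 to 0.93) with Mex67 at 25 °C. With Npl3 it was 4.91 (3.56 to 6.90) and 2.23 (1.72 to 2.90) at 42 °C, against 1.09 (0.84 to 1.41) and 1.34 (1.07 to 1.66) at 25 °C. Without a tag it was 0.67 (0.14 to 2.81) and 0.86 (0.55 to 1.32) at 42 °C, against 0.94 (0.62 to 1.43) and 0.60 (0.35 to 1.02) at 25 °C. The 4 heated immunoprecipitated libraries had the highest ratios of the 12, and the heated no-tag libraries lay among the unheated ones. The interval of heated no-tag replicate 1, from 4 SIC1 and 6 cyclin counts, reaches past the ratios of 2 of the heated immunoprecipitated libraries. The ratio of SIC1 to the sum of CLB5 and CLB6 did not separate in this way. It was 2.23 to 6.89 in the heated immunoprecipitated libraries and 1.29 to 8 in the unheated libraries. Within each immunoprecipitated culture the heated value of that ratio was the higher one.

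**Figure D4:**
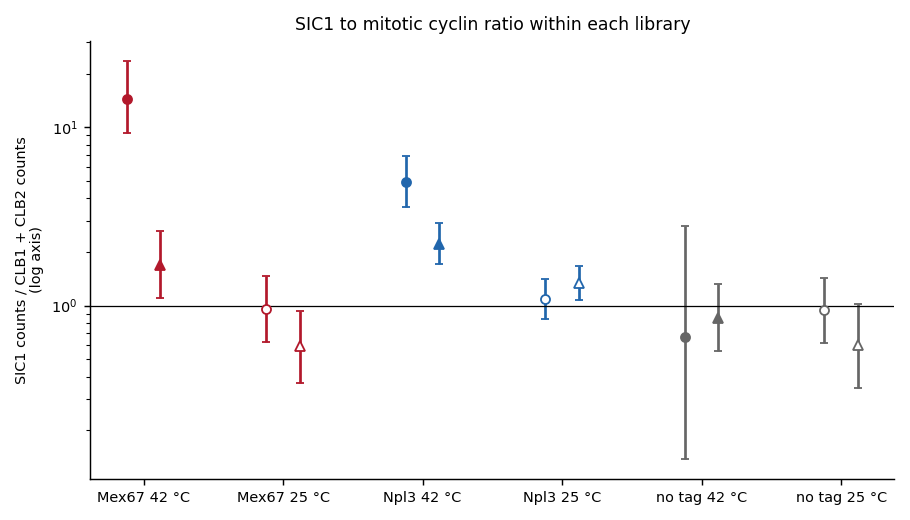
Ratio of SIC1 counts to CLB1 plus CLB2 counts in each library on a log axis, with 95% exact intervals of counting error, filled at 42 °C and open at 25 °C, circles for replicate 1 and triangles for replicate 2. The heated Mex67 and Npl3 libraries lie at 1.69 to 14.4, the heated no-tag libraries at 0.67 and 0.86, and the 6 unheated libraries at 0.59 to 1.34.

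The ratio of CLN3 to the sum of CLN1 and CLN2 was computed in the same way and is also a description. It was 4.71 (3.71 to 6.02) and 0.91 (0.61 to 1.36) with Mex67 at 42 °C, against 1.28 (0.90 to 1.82) and 0.74 (0.49 to 1.10) at 25 °C. With Npl3 it was 2.13 (1.44 to 3.20) and 0.86 (0.67 to 1.09) at 42 °C, against 0.61 (0.47 to 0.79) and 0.84 (0.68 to 1.03) at 25 °C. Without a tag it was 0.64 (0.25 to 1.60) and 0.90 (0.59 to 1.37) at 42 °C, against 0.67 (0.45 to 0.99) and 0.62 (0.38 to 0.97) at 25 °C. The heated ratio was the higher one in all 4 immunoprecipitated cultures, with intervals that were apart in replicate 1 of each strain and overlapped in replicate 2.

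Across the 12 libraries the levels of several messages went together. The correlation of log2 CPM was 0.825 for CLB1 with CLB2, 0.824 for CLB5 with SIC1 and 0.79 for CLN1 with CLB1. It was 0.761 for CLN1 with CLB2 and 0.729 for CLN1 with CLN2. Other pairs of shared role did not go together, with 0.173 for CLB5 with CLB6 and 0.038 for CLB3 with CLB4. Some were negative, such as −0.702 for CLB5 with CLB3 and −0.653 for CLB2 with SIC1. These are descriptions over 12 libraries that share strains, cultures and depth. Among 2247 features with a mean of at least 50 counts, CLN2 was most like ELO3, a fatty acid elongase gene (r = 0.92), RNR1, the large ribonucleotide reductase subunit gene (0.907), and ASP1, an asparaginase gene (0.904). CLB2 was most like the ribosomal protein genes RPL17A (0.928), RPL21A (0.922) and RPS9B (0.911). SIC1 was most like GFD1, an mRNA export factor gene (0.929), SNA3, a vacuolar sorting gene (0.927), and NSG2, a regulator of sterol synthesis (0.921).

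Other genes of the same transcriptional programmes were described from 5 lists, in which 0 members passed in any heat comparison with edgeR or DESeq2. Of 39 further targets of SBF and MBF, 12 (Mex67), 6 (Npl3) and 17 (no tag) lay above 0, with median heat changes of −0.34, −0.45 and −0.09 (log2). In these strains 8, 5 and 0 of them were lower at an unadjusted p under 0.05 and 1, 0 and 0 were higher, while the shares of all features given above were past that p in either direction. Of 24 further targets of Mcm1, Fkh2 and Ndd1, the factors behind CLB1 and CLB2, 2, 9 and 9 lay above 0, with medians of −0.67, −0.27 and −0.03. Those lower at an unadjusted p under 0.05 numbered 4, 2 and 0, and 0 were higher. In either direction 10.1%, 11.0% and 2.12% of all features had such a p. Of 32 regulators of Cdc28 and cyclin turnover, 16, 15 and 11 lay above 0, with medians of 0.04, −0.05 and −0.24. The shares of all features above 0 were 52.7%, 56.6% and 43.5%.

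Cyclins that do not bind Cdc28 were described in the same way. Of 12 genes of the kinase Pho85 and its cyclins, 11 (Mex67), 8 (Npl3) and 7 (no tag) lay above 0 on heating, with medians of 0.39, 0.25 and 0.14. Of 8 cyclins and kinases of the transcription machinery, 7, 8 and 2 lay above 0, with medians of 0.38, 0.34 and −0.66. These counts come with no test, and both lists had 0 members past the threshold. All features lay above 0 in 52.7% (Mex67), 56.6% (Npl3) and 43.5% (no tag) of cases.

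Against the no-tag control, 3 list members passed, all with Npl3, and they were singled out after their values were seen. They were 1 of the 32 regulators and 1 of the 24 Mcm1, Fkh2 and Ndd1 targets at 42 °C, where 7.45% of all features passed, and 1 of the 39 SBF and MBF targets at 25 °C, where 2.40% did. These shares are near or below those of all features. CDC28 (YBR160W), the kinase that all 10 products act on, had 98 and 93.1 CPM with Npl3 at 42 °C, against 33.5 and 20.6 CPM without a tag at 42 °C (2 and 9 counts). It rose by 2.04 ± 0.48 (log2, edgeR adjusted p = 0.0268), and the call ended without either heated no-tag library (1.36 without replicate 2), without Npl3 replicate 1 at 42 °C (2.01) and with gene length corrected (1.73). At 25 °C CDC28 had 54.1 and 84.9 CPM with Npl3, against 46.2 and 38.6 CPM without a tag, and did not pass (0.71 ± 0.38, adjusted p = 0.306).

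SPO12, a mitotic exit gene from the Mcm1, Fkh2 and Ndd1 list, had 246 and 154 CPM with Npl3 at 42 °C, against 0 and 34.4 CPM without a tag at 42 °C and 63.8 and 15.1 CPM with Mex67 at 42 °C. It rose with Npl3 against no tag (2.88 ± 0.70, edgeR adjusted p = 0.0299) and against Mex67 (2.24 ± 0.58, adjusted p = 0.0491). The first call ended without either heated no-tag library (2.45 without replicate 1, and without replicate 2 the remaining control had no count), without Npl3 replicate 1 at 42 °C (2.50) and with gene length corrected (1.81). The second held in 7 of 21 alternatives, with values from 1.46 upwards. ASF1, a histone chaperone gene from the SBF and MBF list, had 351 and 147 CPM with Npl3 at 25 °C, against 37.3 and 20.8 CPM without a tag at 25 °C. It rose by 3.05 ± 0.70 (edgeR adjusted p = 0.0466), a call that ended without any 1 of the 4 libraries compared (2.29 to 3.57), without either unheated Mex67 library and with gene length corrected (2.75).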

How the data were processed

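The deposited values were whole-number counts per annotated feature, 1 table per library. Per the submitters' processing notes, the tools were STAR, CASAVA 1.8.2, DESeq2 and featureCounts (Subread 1.5.0-p1), on build R64. Strand setting and treatment of multiply mapped reads are not given in the sources used here. Places and lengths came from the RefSeq gene table of the same build.

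The counts were tested with edgeR 4.0.16 (R 4.3.3; robust glmQLFit, glmQLFTest) after filterByExpr (10 counts, 15 in total) and TMM scaling, with all 12 libraries in the fit and 6 residual degrees of freedom. Benjamini-Hochberg adjustment ran over all 5245 features within each of 14 comparisons, 3 of them added after the data were seen. The SE is the log2 change over the root of F. Some p-values are raised by edgeR's Poisson bound, so SE and p need not match. CPM use effective library sizes, log2 values of single libraries a prior count of 2. The methods were tested on simulated data.

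The members and lists were chosen with earlier results of these data known. The result of 1 list is not reported here. All 10 members were named, as were the 3 features most like CLN2, CLB2 and SIC1; other list members were named only if called in the mean heat change, with the exceptions marked. Replicates are biological ones by the series' design text. The growth protocol says that cultures were divided between temperatures, and a culture block was an alternative. Deviations of replicates correlated at 0.266 (no tag), 0.114 (Npl3) and 0.601 (Mex67) between temperatures over 2247 genes. Between strains they ran from −0.174 (heated no tag with heated Mex67) to 0.455 (heated Npl3 with heated Mex67). Unheated no tag with unheated Mex67 had 0.365. These correlations therefore do not single out shared cultures. Further alternatives were RLE size factors, total counts, DESeq2 1.42.0, 2 count filters, protein-coding genes only, only the groups compared, a block for replicate number, a length correction (lowess, span 0.4) and leaving out each library. Figures used matplotlib 3.10.9.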

Additional observations from a re-analysis of the deposited data

How the results depend on the processing

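No estimate changed sign among the members and list genes that had an unadjusted p under 0.05 or a call, under any alternative run. The count of members called moved as follows, and the cause was not tested except where given. For Npl3 against no tag it was 1 at each temperature, 0 at each with a mean of at least 50 counts, where CLB5 is no longer tested, and 0 at each with the length correction. At 42 °C it was 2 with total counts only, SIC1 joining at 1.75 (adjusted p = 0.0418). Leaving out single libraries gave 0 to 2 at 42 °C and 0 to 1 at 25 °C. CLB5 was called in 16 of 20 alternatives at 42 °C (2.17 to 3.02, log2) and in 13 of 20 at 25 °C (1.92 to 3.81). For Npl3 against Mex67 the count was 0 and became 1 with the number as a replicate block (both temperatures), 1 with no low-count filter (42 °C) and 0 to 1 with single libraries left out (42 °C). For the mean heat change of the 3 strains it was 0, and 0 to 2 with single libraries left out (2 without Mex67 replicate 2 at 42 °C). For that of Mex67 and Npl3 it was 0, and 1 with no low-count filter, with the culture block and with the number block, and 0 to 2 with single libraries left out (2 without replicate 2 of either heated IP). The culture block changed no other call of a member.

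Counts over all features moved more. Npl3 against no tag at 42 °C gave 391 features, with 661 under total counts, 0 with the length correction and 0 to 666 with single libraries left out. At 25 °C the main count was 126, with 214 under total counts, 283 with DESeq2, 263 without a filter, 228 with only the groups compared, 300 with the number block, 0 with the length correction and 0 to 304 with single libraries left out. Npl3 against Mex67 gave 206 at 42 °C (0 to 456 over the alternatives) and 147 at 25 °C (0 to 396). The mean heat change of the 3 strains gave 2 (104 with DESeq2, 149 with the culture block, 45 with the number block, 21 without a filter, 0 to 207 with single libraries left out) and that of Mex67 and Npl3 gave 16 (254, 469, 101, 89 and 0 to 405 in the same order). The heat change with Npl3 gave 0, with 27 (DESeq2), 46 (culture block), 10 (number block), 9 (no filter), 7 (only the groups compared) and 0 to 16 (single libraries left out); with Mex67 it gave 0, with 12 by DESeq2 and 3 with the culture block. Mex67 against no tag gave 0 and with DESeq2 38 at 42 °C and 1 at 25 °C. Total counts as the only scaling moved the median of all features to 0.70 (Mex67, 42 °C) and 0.52 (Npl3, 42 °C) against no tag, and to 0.28 for the Mex67 heat change. DESeq2 gave many members no adjusted p, and the fit of only the groups compared was not run for the mean of the 3 strains, which uses all groups. With 37 member counts in heated no-tag replicate 1, depth limits every comparison with that group.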
